A study of Mus musculus with 30 samples.

Results

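Serotonergic neurons of the mouse hindbrain were profiled during the fever that follows lipopolysaccharide (LPS), a component of the outer membrane of Gram-negative bacteria. The comparison rests on 7 of the 30 arrays of the series: every array of the Slc6a4 line that holds RNA from translating ribosome affinity purification (TRAP). Of these, 4 came from mice given LPS and 3 from mice given the vehicle, sterile PBS. All 7 mice carried the transgene Tg(Slc6a4-EGFP/Rpl10a)JD60Jdd on a mixed B6;FVB background. In it, regulatory sequence of Slc6a4, the serotonin transporter gene, drives a green fluorescent ribosomal protein. Precipitation of that tagged protein pulls down ribosomes, and the RNA on them, from the cells that express it. The mice were adult (6 to 12 weeks), were kept at 30 °C with a temperature transponder in the abdomen, and received 100 ug per kg of LPS or PBS by intraperitoneal injection. They were killed between 6.5 and 7 hours later, per the labels' protocols, when the mean fever was 2.175 °C (SD 1.18) above the preceding minimum; which mice that mean covers is not given. The LPS group held 1 female and 1 male in each of 2 amplification batches. The PBS group held 1 female in batch 1, and 1 female and 1 male in batch 2, so batch 1 rests on a single PBS array. Arrays set beside these were 8 of Slc6a2 TRAP (noradrenergic neurons, transgene Tg(Slc6a2-EGFP/Rpl10a)JD1538Jdd) and 8 of total hindbrain RNA of the Slc6a4 line, with 4 LPS and 4 PBS arrays each. A further 7 arrays of total RNA of the Slc6a2 line, 3 LPS and 4 PBS, were also read. The arrays called total RNA here are labelled Pre-IP RNA in batch 1 and Unbound RNA in batch 2.

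Neurons that make serotonin lie in the raphe nuclei along the midline of the brainstem. Those of the medulla project to the spinal cord and take part in the control of heat production and skin blood flow. LPS is detected by Toll-like receptor 4 on immune and endothelial cells, and the cytokines and prostaglandin E2 released in response raise body temperature through the preoptic hypothalamus, which acts on the medullary raphe. TRAP reads the RNA held by ribosomes of 1 cell type in this setting, but RNA of other cells can be carried along.

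No probe of the array table has a gene name, and the RefSeq gene table matched 0 of the probe IDs. Probes are given by ID alone. The markers of serotonergic neurons and of other cell types, and the cytokine, prostaglandin, interferon, glucocorticoid and heat shock genes on the planned lists, had no probes to read, so the labelled cell type was not checked against its markers. For the same reason no sequence is shown. Fewer transcripts per cell and fewer cells of a type cannot be told apart in such RNA.

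Between 17012 and 19424 probes were detected per array, at a detection p under 0.01. The 3 arrays of batch 1 stood apart. The PBS female of batch 1 lay at -91.8 on the first principal component (38.5% of the variance), where the other arrays lay from 5.96 to 18.6. The LPS male of batch 1 lay at -64.6 on the second component (22.6%) and the LPS female of batch 1 at -62.5 on the third (18.3%). Across probes the median correlation with the other arrays was 0.913 for the PBS female of batch 1, and from 0.941 to 0.963 for the rest. The sex labels were checked with ILMN_1215914, the probe with the smallest p for sex in total RNA of the Slc6a2 line. It lay between 4.77 and 5.18 log2 units on the 4 female arrays and between 9.19 and 9.61 on the 3 male arrays, so no array went against its label.

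The first question was which transcripts differed between LPS and PBS in Slc6a4 TRAP. Of 19291 probes tested, 2 were higher after LPS (0.0104% of those tested) and 0 lower, in a limma fit with the amplification batch as a term and a Benjamini-Hochberg adjusted p under 0.05. Before adjustment, 1519 probes (7.87%) had a p under 0.05, with 896 higher (4.64%) and 623 lower (3.23%). The median difference over all probes was 0.0047 log2 units.

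ILMN_2677859 showed the largest difference of the probes called. On the LPS arrays its normalized intensity was 10.08 log2 units in the female and 9.81 in the male of batch 2, 9.67 in the male of batch 1 and 9.07 in the female of batch 1. The PBS arrays read 6.13 in the female and 5.74 in the male of batch 2, and 4.98 in the female of batch 1, where the probe was not detected. All 4 LPS arrays lay above all 3 PBS arrays, with 2.94 log2 units between the lowest LPS and the highest PBS array. The means were 9.65 ± 0.43 (SD, n = 4) and 5.61 ± 0.58 (SD, n = 3). The difference adjusted for batch was 4.16 log2 units (SE 0.24, limma adjusted p = 0.00037). Without background correction it was 2.83 log2 units (SE 0.18, limma adjusted p = 0.00074), so its size depends on how the dim PBS arrays are corrected. It was 4.39 within batch 1 and 4.01 within batch 2.

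ILMN_1214408, a bright probe, differed by about a doubling. It read 12.07 and 12.10 log2 units on the LPS female and male of batch 2, and 12.16 and 12.11 on the LPS female and male of batch 1. The PBS arrays read 11.00 and 10.94 for the female and male of batch 2, and 11.26 for the female of batch 1. The LPS arrays lay within a narrow band, at 12.11 ± 0.04 (SD, n = 4), and the PBS arrays at 11.07 ± 0.17 (SD, n = 3), with no overlap. The difference was 1.02 log2 units (SE 0.07, limma adjusted p = 0.0012), 0.87 within batch 1 and 1.11 within batch 2. When the spread was shared with the 8 Slc6a2 TRAP arrays its adjusted p was 0.82, and with the 8 total RNA arrays of its own line it was 0.056, so this call was lost in both of these wider fits.

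No fall passed the threshold. The probes with the smallest p among those lower after LPS were ILMN_1256528 and ILMN_2674284. ILMN_1256528 read from 10.55 to 10.67 on the LPS arrays and from 11.14 to 11.27 on the PBS arrays. Its difference was -0.58 log2 units (SE 0.08, limma adjusted p = 0.22). ILMN_2674284 read 8.66, 8.50, 8.33 and 8.51 on the LPS arrays (female and male of batch 2, male and female of batch 1) and 9.58, 9.47 and 9.70 on the PBS arrays (female and male of batch 2, female of batch 1). The groups did not overlap, and the difference was -1.08 log2 units (SE 0.15, limma adjusted p = 0.22). With the spread shared with total RNA of the same line its limma adjusted p was 0.039. That fit took TRAP and total RNA arrays as independent, though arrays that share their labels are read below as 1 mouse.

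**Figure D1:**
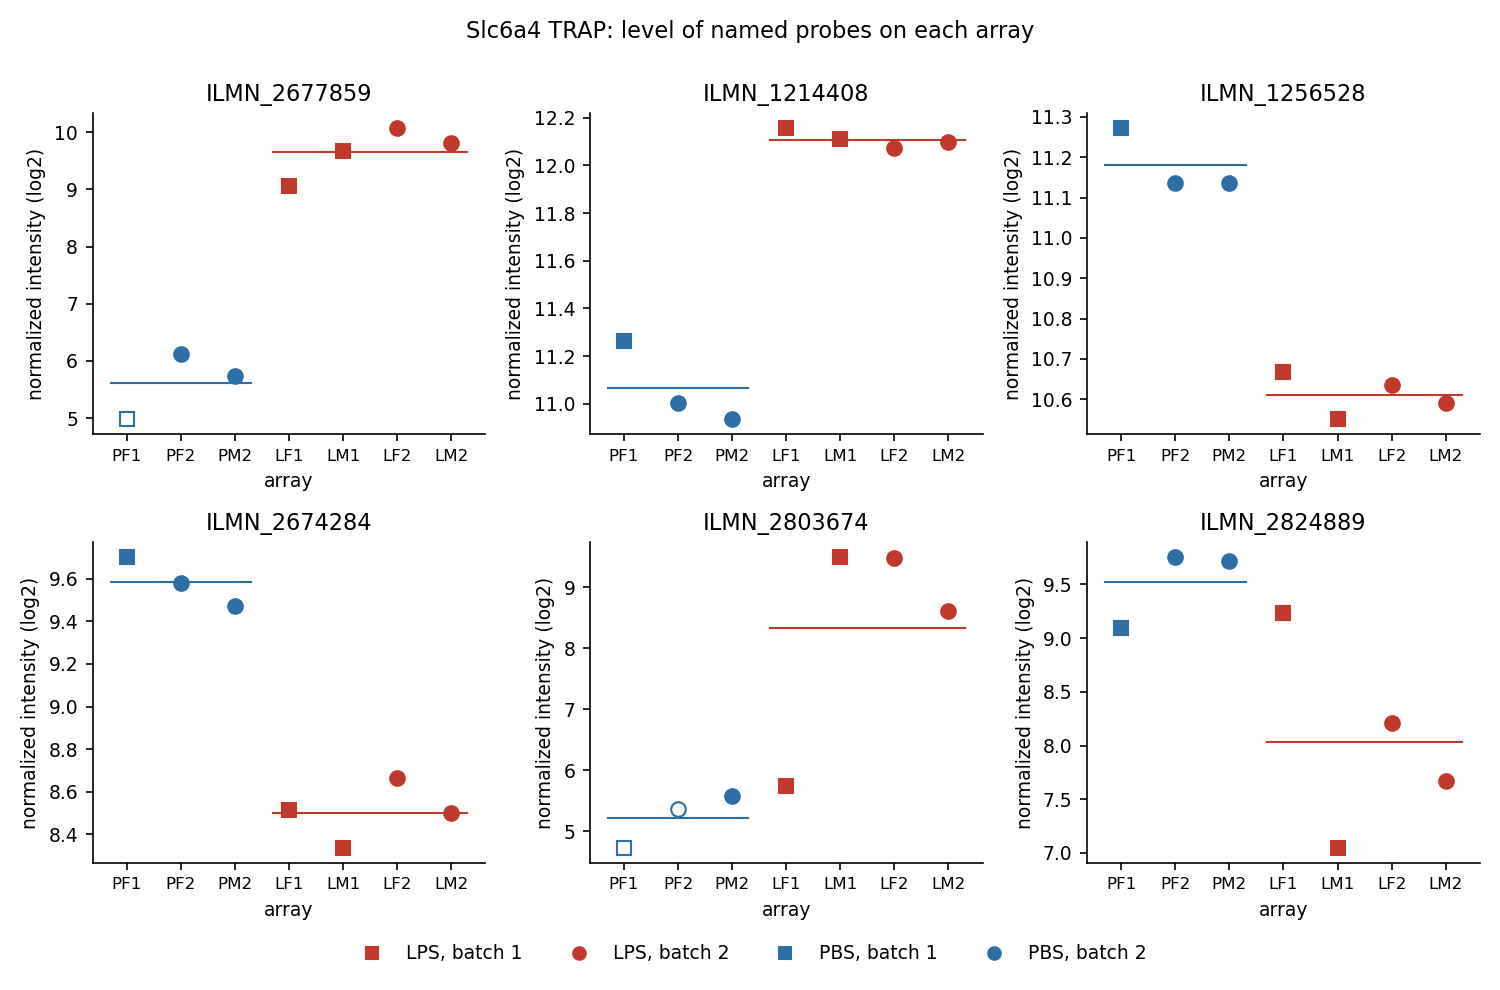
Normalized intensity (log2) of 6 probes on the 7 Slc6a4 TRAP arrays. Array names give treatment (P for PBS, L for LPS), sex (F, M) and batch (1, 2), squares are batch 1, circles batch 2, open symbols are arrays without detection, and lines are group means over all arrays of a treatment. For ILMN_2677859, ILMN_1214408, ILMN_1256528 and ILMN_2674284 the LPS female of batch 1 (LF1) lies with the other LPS arrays; for ILMN_2803674 and ILMN_2824889 it lies at 5.74 and 9.23, near the PBS arrays.

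Counted without a model, all 4 LPS arrays lay above all 3 PBS arrays for 625 probes (3.24% of the 19291) and below them for 647 (3.35%). A gap of at least 1 log2 unit between the groups was seen for 2 probes, both higher after LPS (0.0104%), and for 0 lower. One is ILMN_2677859. The other, ILMN_1220063, is named here after its values were seen. It was detected on all 4 LPS arrays, from 6.08 to 6.51 log2 units, and on 0 of the 3 PBS arrays, from 4.53 to 4.67. As it was not well above background after PBS, its level was at least 1.55-fold higher after LPS (limma adjusted p = 0.37). This bound sets the LPS mean against, per PBS array, the lowest level among detected probes or the probe's own if higher. In the fit, 323 probes were higher by at least 1 log2 unit and 189 lower by as much, and 2 of these probes passed the threshold, as given above.

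Among the LPS arrays, that of the female of batch 1 had been singled out because its response looked weak, so the values without it are a description and no independent evidence. Without this array 9 probes were called as higher and 1 as lower, of 18952 tested (0.0528% in either direction), in a fit where batch 1 holds 1 LPS and 1 PBS array. Both probes called with all 7 arrays were among these 10. Differences ran from 0.67 to 4.25 log2 units in size. On a scale where 0 is the PBS mean and 1 the mean of the other LPS arrays, both adjusted for batch, the left-out array lay at a median of 0.31 over the 10 probes, from -0.12 to 0.96. It lay nearer to LPS for 2 of them, ILMN_2677859 (0.91) and ILMN_1214408 (0.96), and nearer to PBS for 8. For 7 of the 10, these 2 included, it still lay beyond all PBS arrays in the direction of the other LPS arrays.

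ILMN_2803674 was the largest rise gained in this way. It read 9.48 and 8.61 log2 units on the LPS female and male of batch 2 and 9.50 on the LPS male of batch 1, but 5.74 on the LPS female of batch 1. The PBS arrays read 5.36, 5.58 and 4.72, with detection on 1 of 3. The array in question therefore lay 0.16 above the highest PBS array, while the other 3 LPS arrays lay far above. With all 7 arrays the difference of this probe was 3.30 log2 units (SE 0.74, limma adjusted p = 0.59), and without the array 3.99 (SE 0.36, limma adjusted p = 0.017). Both sizes rest on PBS values at or near background. ILMN_2824889, the only fall gained, read 8.21, 7.67 and 7.04 on the other LPS arrays, 9.23 on the LPS female of batch 1, and from 9.09 to 9.76 on the PBS arrays. Its difference without the array was -1.89 (SE 0.19, limma adjusted p = 0.032).

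The batches offer a check in arrays that the choice of probes did not use. Batch 2 alone, with 2 LPS and 2 PBS arrays, called 45 of 18142 probes (0.248%), 39 higher and 6 lower after LPS. These probes were then read in the 3 arrays of batch 1, normalized by themselves. In the LPS male of batch 1, 35 of the 39 higher probes were above the PBS female of that batch, where 51.0% of all probes were, and 6 of the 6 lower probes were below it. The median difference of the 39 was 0.72 log2 units, against 1.49 in batch 2 and 0.014 over all probes. In the LPS female of batch 1, 20 of the 39 were above the same PBS array, where 52.0% of all probes were, and 2 of the 6 lower probes were below it. The median difference of the 39 was 0.0033, against 0.026 over all probes. Both readings in batch 1 use the 1 PBS array there, which is also the array farthest from the rest, and the probes are not independent replicates. The reading of the LPS male also sets a male against a female, so sex and LPS cannot be told apart in it.

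**Figure D2:**
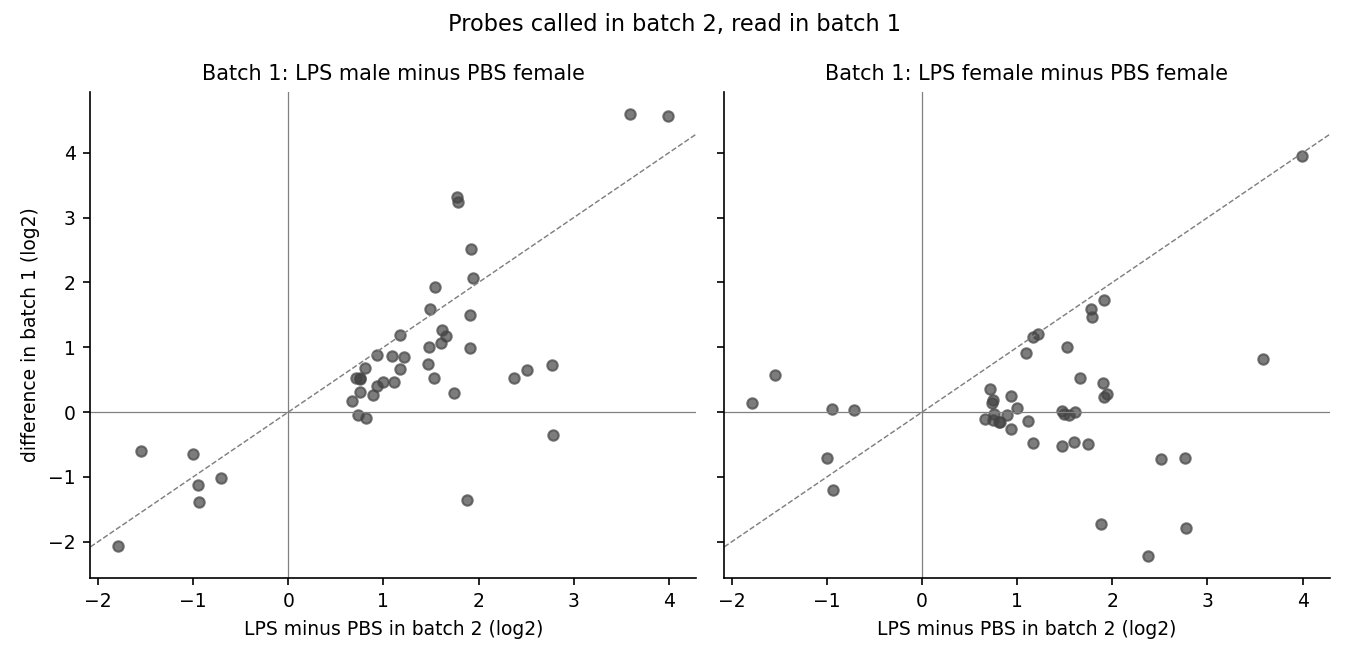
Each point is 1 of the 45 probes called in batch 2 of Slc6a4 TRAP; the x axis gives its LPS minus PBS difference there (log2), the y axis the difference from the PBS female in batch 1 (log2) for the LPS male (left) and the LPS female (right), and the dashed line marks equal differences. The points of the LPS male follow the direction of batch 2 (35 of 39 higher, 6 of 6 lower). Many of those of the LPS female scatter about 0, while others, such as ILMN_2677859 near 4, lie higher. Of the 39 higher probes, 8 reached at least 0.5 of their batch 2 difference in the LPS female, and 24 in the LPS male.

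Each array was also placed on the 50 probes with the smallest p of the fit made without it, on the same scale from PBS (0) to LPS (1). The LPS arrays of batch 2 lay at medians of 0.57 (female) and 0.67 (male), the LPS male of batch 1 at 1.26 and the LPS female of batch 1 at 0.24. The PBS arrays lay at 0.29 (female of batch 2), 0.58 (male of batch 2) and 0.64 (female of batch 1). The held-out arrays of both treatments thus overlapped, and with 6 arrays left in each fit the leading probes did not sort the seventh by its treatment.

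Probes raised by LPS in other mice gave a clearer order. Over the 15 arrays of the Slc6a2 line (8 TRAP, 7 total RNA), 16 probes were called as higher (0.0653%) and 2 as lower after LPS, of 24493 tested (0.0735% in either direction). None of these arrays enters the Slc6a4 comparison. TRAP and total RNA arrays with the same sex, treatment and batch, read below as 1 mouse, were taken as independent in this fit of the Slc6a2 line. Its adjusted p-values therefore rest on more arrays than mice. In Slc6a4 TRAP 14 of the 18 passed the detection filter, 0 had an adjusted p under 0.05 and 11 an unadjusted p under 0.05, where 7.87% of all probes did. The other 4, all among the 16, were too dim on these arrays to be tested. The count of 11 covers either direction. It includes ILMN_1238069, which was lower after LPS in the Slc6a2 line (-1.14 log2 units) but higher in Slc6a4 TRAP (0.87). All 16 higher probes had a difference above 0, as 50.8% of all tested probes did, with a median of 0.82 log2 units (range 0.17 to 3.30) against 0.0047 over all probes. The highest of them was ILMN_2803674, described above, for which a PBS array was the highest in total RNA of the Slc6a4 line. The median was 1.09 once the LPS female of batch 1 was left out, and 1.13 once the PBS female of batch 1 was. Here and below, the 16 probes are read on the same few arrays, so they are not independent replicates. The 4 that were not tested are among the 16, while the 50.8% covers tested probes alone.

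By array, the 16 probes lay a median of 1.16 log2 units above the PBS mean in the LPS female of batch 2, 0.99 in the LPS male of batch 2 and 1.09 in the LPS male of batch 1. In the LPS female of batch 1 the median was -0.042, and 8 of the 16 were above the PBS mean. The PBS arrays had medians of -0.12 (female and male of batch 2) and 0.26 (female of batch 1). This LPS array therefore fell among the PBS arrays, and all 4 LPS arrays exceeded all 3 PBS arrays for 1 of the 16 probes, where 3.24% of all tested probes did so. For 12 of the 16 the other 3 LPS arrays exceeded all PBS arrays, where 5.73% of the probes tested without it did.

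In total hindbrain RNA the LPS female of batch 1 was again the lowest of the LPS arrays. The 16 probes lay a median of 1.90, 1.52 and 2.51 log2 units above the PBS mean in the total RNA of the LPS female and male of batch 2 and of the LPS male of batch 1. In that of the LPS female of batch 1 it was 0.20, close to the 0.19 of the PBS female of batch 1. The design text names 16 mice, so a TRAP and a total RNA array that share these 4 labels (line, sex, treatment, batch) were read as 1 mouse. On that reading, low values of these probes were seen for this LPS female in Pre-IP RNA as well as in TRAP RNA. What lies behind them was not tested. Body temperatures of single mice are not analysed here.

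**Figure D3:**
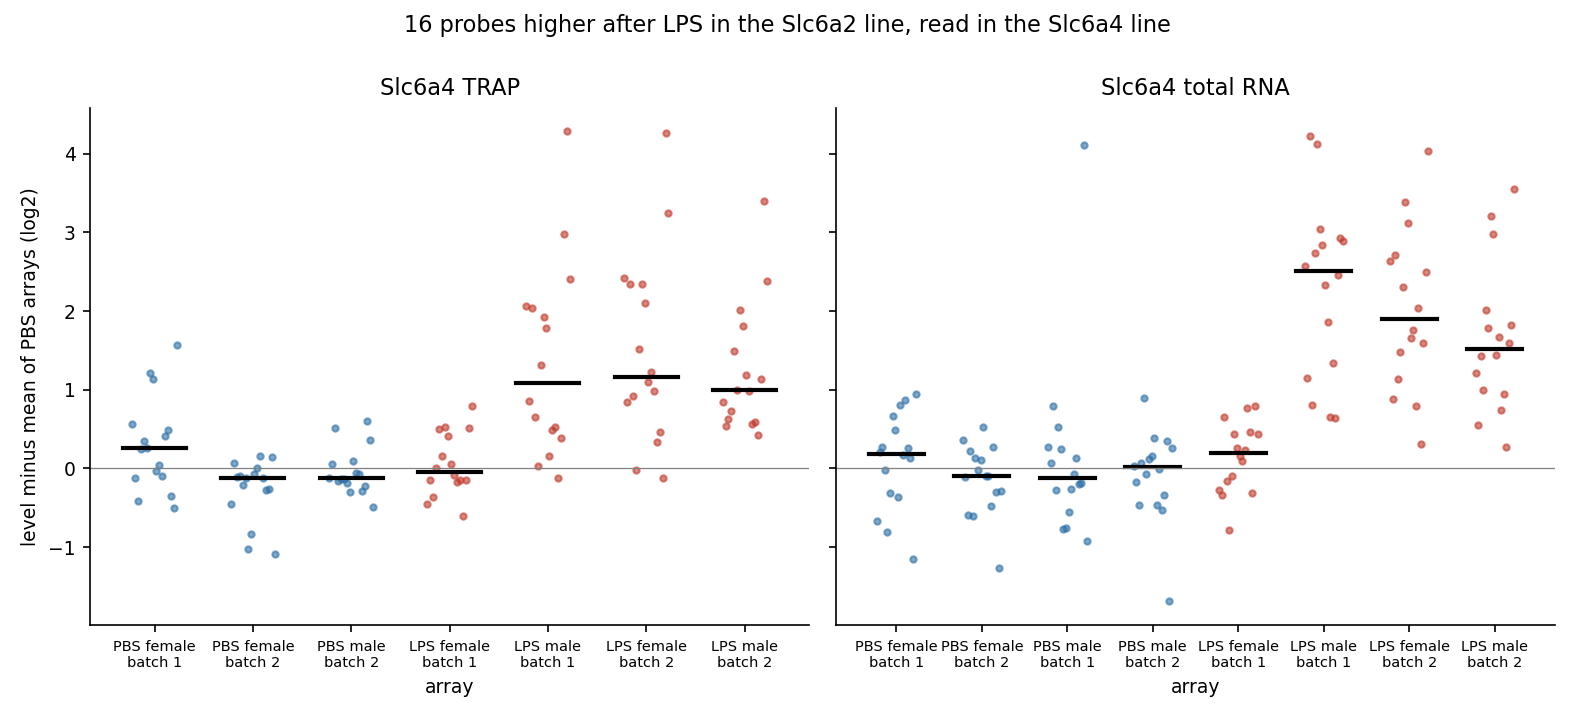
Each dot is 1 of the 16 probes called as higher after LPS in the Slc6a2 line, plotted as its level minus the mean of the PBS arrays (log2) on each array of Slc6a4 TRAP (left) and of total RNA of the Slc6a4 line (right), with black bars at the medians, PBS in blue and LPS in red. The LPS female of batch 1 has medians of -0.042 (TRAP) and 0.20 (total RNA), where the other LPS arrays have at least 0.99 and 1.52.

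Of the list's members, ILMN_1231814 and ILMN_2714031 had the smallest p in the Slc6a2 line among those higher. ILMN_1231814 read 7.69, 6.11 and 7.33 log2 units on the LPS female and male of batch 2 and the LPS male of batch 1 of Slc6a4 TRAP, and 4.82 on the LPS female of batch 1. It was detected on the first 3 of these and on 0 of the 3 PBS arrays (4.82, 5.15 and 5.83). Its difference over all 7 arrays was 1.25 log2 units (SE 0.66, limma adjusted p = 0.67). As the PBS arrays and the LPS female of batch 1 were not well above background, this is not an exact size. ILMN_2714031 read 9.99, 9.68 and 10.01 on the same 3 LPS arrays and 9.21, 9.20 and 9.02 on the PBS arrays, and the LPS female of batch 1 lay below all of these. Its difference was 0.57 (SE 0.22, limma adjusted p = 0.63), against 1.19 (SE 0.12) in the Slc6a2 line. Of the 2 probes lower after LPS in that line, ILMN_2728682 had the same sign in Slc6a4 TRAP, with a difference of -0.47 (SE 0.19, limma adjusted p = 0.63), and ILMN_1238069 the opposite one.

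The next question was whether the response of serotonergic neurons differed from that of noradrenergic neurons. A test of the difference between the lines, over the 15 TRAP arrays, called 2 of 21863 probes (0.00915%; 1067 or 4.88% at an unadjusted p under 0.05), both with the larger LPS minus PBS value in Slc6a4 TRAP. The first was ILMN_2677859. Its response was 4.26 log2 units (SE 0.36) in Slc6a4 TRAP and 0.29 (SE 0.33) in Slc6a2 TRAP, a difference of 3.97 (SE 0.49, limma adjusted p = 0.020). It was detected on 0 of the 8 Slc6a2 TRAP arrays, where all values lay between 4.60 and 5.70 with all 30 arrays normalized together, so no size of a response can be read there. On that scale the LPS arrays of Slc6a4 TRAP lay between 9.32 and 10.28.

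The second, ILMN_1238069, had fitted responses of opposite sign, of which only that in Slc6a2 TRAP passed the threshold. In Slc6a4 TRAP it read 9.16, 9.51, 9.24 and 9.71 on the LPS arrays (female and male of batch 2, male and female of batch 1) and 8.40, 8.91 and 8.30 on the PBS arrays (female and male of batch 2, female of batch 1). In Slc6a2 TRAP it read 8.29, 7.90, 6.80 and 6.71 on the LPS arrays in the same order, and 9.48, 10.12, 9.26 and 9.03 on the PBS arrays (female and male of batch 2, male and female of batch 1). No LPS array overlapped a PBS array in TRAP RNA of either line. The responses were 0.88 log2 units (SE 0.29, limma adjusted p = 1) and -2.05 (SE 0.26, limma adjusted p = 0.015), and their difference was 2.92 (SE 0.39, limma adjusted p = 0.024). The LPS female of batch 1 had the highest of the 7 values in Slc6a4 TRAP.

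No probe passed with the smaller response in Slc6a4 TRAP. The smallest p there belonged to ILMN_2746695, at -0.87 (SE 0.54) in Slc6a4 TRAP and 3.29 (SE 0.49) in Slc6a2 TRAP, a difference of -4.16 (SE 0.73, limma adjusted p = 0.22). It was detected on 0 of 4 PBS arrays of Slc6a2 TRAP, and on its 4 LPS arrays it was at least 5.97-fold higher. ILMN_1225191 had a difference of -2.88 (SE 0.54, limma adjusted p = 0.35). Both calls between the lines were lost without most single Slc6a4 TRAP arrays, while the differences stayed between 3.83 and 4.12 (ILMN_2677859) and between 2.72 and 3.12 (ILMN_1238069) with any 1 of the 15 arrays left out. The limma adjusted p then ran from 0.021 to 0.42 and from 0.026 to 0.48. Without that of the PBS female of batch 2, the LPS female of batch 2, the PBS male of batch 2, the LPS male of batch 1, the LPS male of batch 2 or the PBS female of batch 1 the count was 0 (from 431 to 905 probes at an unadjusted p under 0.05), while leaving out the LPS female of batch 1 left 1. Among Slc6a2 TRAP arrays, leaving out the PBS male of batch 2 or the LPS male of batch 1 gave 0 (1240 and 1193 at an unadjusted p under 0.05), and the PBS female of batch 1 gave 1.

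Total RNA of the same line was compared in the same way. The test of the difference between TRAP and total RNA called 1 of 24218 probes (0.00413%; 1576 or 6.51% at an unadjusted p under 0.05), again ILMN_2677859. Its response was 3.97 log2 units (SE 0.33) in TRAP and 0.44 (SE 0.30) in total RNA, a difference of 3.53 (SE 0.44, limma adjusted p = 0.021). In total RNA it was detected on 3 of 4 LPS and 1 of 4 PBS arrays and lay close to background, from 4.53 to 5.82 and from 4.61 to 5.38. ILMN_2848906 had the next smallest p among probes with the larger response in TRAP, at 1.48 (SE 0.23) in TRAP and -0.48 (SE 0.21) in total RNA (limma adjusted p = 0.15 for the difference). ILMN_2763459 and ILMN_2674284 had the smallest p among those with the smaller response in TRAP, with differences of -1.04 (SE 0.20) and -0.92 (SE 0.20) and a limma adjusted p of 0.76 each.

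The call between TRAP and total RNA was also lost without most single arrays, while the difference of ILMN_2677859 stayed between 3.25 and 3.84 log2 units (limma adjusted p from 0.0024 to 0.37). Leaving out the TRAP array of either PBS female, the PBS male, the LPS female of batch 2 or either LPS male gave 0, and leaving out that of the LPS female of batch 1 gave 2. It was 0 without the total RNA array of any 1 PBS mouse or of the LPS male of batch 1, and 2 without that of the LPS female of batch 1. With both arrays of that mouse left out 1 probe was called, which was not ILMN_2677859 (3.49 log2 units, limma adjusted p = 0.074). Where the count was 0, limma had between 674 and 2037 probes at an unadjusted p under 0.05.

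Total RNA by itself, in this fit, had 0 of 24218 probes called for LPS (limma, 1463 or 6.04% at an unadjusted p under 0.05), and TRAP had 14 (10 higher and 4 lower, 0.0578%). ILMN_1214408 was among the probes with the smallest p in total RNA, at 0.97 log2 units (SE 0.15, limma adjusted p = 0.16). Its TRAP response in the same fit was 0.97 (SE 0.17), and the difference between both had an SE of 0.23.

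The levels of ILMN_1214408 across all 30 arrays did not follow the treatment in every mouse. With all arrays normalized together, the total RNA of the Slc6a4 line read from 11.87 to 12.05 log2 units after LPS. Of the PBS arrays, 3 read 10.66, 10.66 and 10.81, and the PBS male of batch 1, the mouse without a TRAP array in this comparison, read 11.68. In total RNA of the Slc6a2 line the 4 PBS arrays read from 11.40 to 12.01, the LPS females 10.59 and 10.60, and the LPS male 11.92. In Slc6a2 TRAP the 4 PBS arrays read from 12.07 to 12.38, and the LPS arrays 10.99 and 11.54 for the females of batch 2 and batch 1 and 11.60 and 12.12 for the males of batch 1 and batch 2. Its response in Slc6a2 TRAP was -0.63 (SE 0.18, limma adjusted p = 0.19), and the difference between the lines was 1.65 (SE 0.26, limma adjusted p = 0.13). ILMN_1220063 showed the same exception: in total RNA the PBS male of batch 1 read 6.35, against 4.76 to 5.25 on the other PBS arrays and 6.40 to 6.75 on the LPS arrays. In total RNA of the Slc6a2 line the LPS females, low for ILMN_1214408, read 4.54 and 4.68 without detection, and the other arrays from 5.58 to 6.29. Both probes were therefore high and low on the same total RNA arrays, whatever the treatment. Differences between single mice and the effect of LPS cannot be told apart for them in 7 mice.

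**Figure D4:**
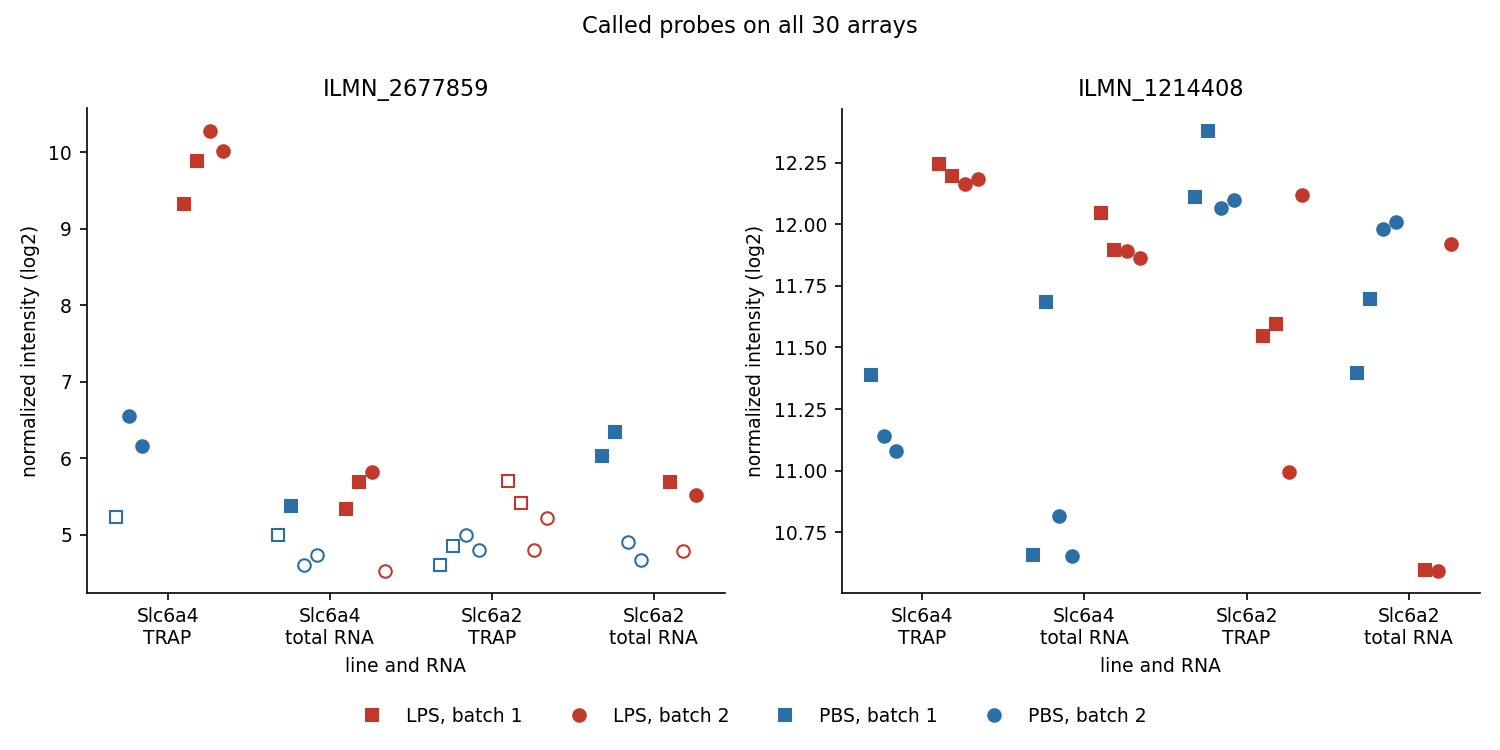
Normalized intensity (log2) of the 2 probes called for LPS in Slc6a4 TRAP, on all 30 arrays by line and kind of RNA, with PBS in blue, LPS in red, squares for batch 1, circles for batch 2 and open symbols for arrays without detection. ILMN_2677859 is high on the 4 LPS arrays of Slc6a4 TRAP (9.32 to 10.28) and at most 6.56 on all other arrays, while ILMN_1214408 lies at high and low levels in both treatments outside Slc6a4 TRAP.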

How the data were processed

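The authors deposited 1 table: 30 Illumina arrays, 45281 probes, and for each an intensity and its detection p-value. As judged from the values, the deposited intensity (8.2 to 60959.6) was neither normalized nor background-subtracted. lumi is named in the submitters' processing notes, where its role is not stated; scanner software is not given in the sources used here. RNA was amplified with Nugen Ovation PicoSL, per the labels' protocols.

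The 7 Slc6a4 TRAP arrays were corrected with normexp using the deposited detection p-value, quantile normalized and log2-transformed (offset 16; neqc, limma 3.58.1, R 4.3.3). Probes with a detection p under 0.01 on at least 3 of the 7 arrays were kept. lmFit and eBayes with a trend tested treatment with batch as a term, on 4 residual degrees of freedom. The comparisons with Slc6a2 TRAP and with total RNA used 15 arrays each, normalized together, with batch within each set and 9 residual degrees of freedom. Fits that joined TRAP and total RNA of the Slc6a4 line took arrays read as 1 mouse as independent. Their adjusted p-values and counts therefore rest on more arrays than mice, except where a replicate block is named. In total RNA, batch 1 is Pre-IP and batch 2 Unbound RNA. The number of arrays limits the precision. Adjusted p-values are Benjamini-Hochberg over all probes tested. The fits were tested on simulated data.

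Named probes were the 2 per direction with the smallest p and the same sign in both batches, since fewer than 10 were called, or, where 10 or more were called, those with the largest difference. The arrays, the lists and the left-out array were chosen with earlier results of these data known. Alternatives changed the normalization, background, filter, model terms, shared spread and arrays used. The reading of batch 2 probes in batch 1, the placing of held-out arrays, the fits sharing spread with total RNA and the leaving out of arrays outside Slc6a4 TRAP were added after the data were seen. The gene lists of the plan could not be tested.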

Additional observations from a re-analysis of the deposited data

Results flagged for a closer look

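The median of the 16 list probes above the PBS mean was -0.042 log2 units in the LPS female of batch 1 of Slc6a4 TRAP, far from the other 3 LPS arrays (0.99 to 1.16). This array had been singled out beforehand for its weak response, so its distance restates that choice and is no test. Of 33 groups examined for a sample far from the others, 1 had one, and chance alone gives about 1 in 20. Total RNA under the same label read 0.20.

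ILMN_2677859 differed in its LPS response between Slc6a4 TRAP and Slc6a2 TRAP by 3.97 log2 units, and between Slc6a4 TRAP and total RNA of that line by 3.53. It was not detected on the 8 Slc6a2 TRAP arrays and was near background in total RNA, so these fitted values are not exact sizes. ILMN_1238069 differed between the lines by 2.92 log2 units, with a fall in Slc6a2 TRAP. Its higher values after LPS in Slc6a4 TRAP did not pass the threshold by themselves.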

How the results depend on the processing

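The count of 2 probes for LPS in Slc6a4 TRAP stayed at 2, and held the same 2 probes, with all 30 arrays normalized together, median centring, no background correction, no filter, sex or the letter in the array titles as a further term, no batch term, and a replicate block of sex and batch, which pairs LPS and PBS arrays. The LPS male of batch 1 has no PBS partner in that block, so it adds nothing to the difference there. The count was 1 among probes detected on all 7 arrays, which leaves out ILMN_2677859, and 1 with the spread shared with Slc6a2 TRAP. It was 27 with array weights, 45 in batch 2 alone, 14 with the spread shared with total RNA of the line and 57 with that and without the LPS female of batch 1. Leaving out 1 array gave 2 to 10. The array weights ran from 1.56 to 1.78 in batch 2 and from 0.28 to 0.67 in batch 1. The count of 27 therefore leans on batch 2 and is not separate from the count in batch 2 alone. ILMN_2677859 passed under all 21 alternatives in which it was tested (adjusted p 0.000020 to 0.012), and ILMN_1214408 under 19 of 22 (0.000041 to 0.82).

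The count between the lines was 0 with no filter (limma, 1866 at an unadjusted p under 0.05) and 0 with sex as a term (962), and from 0 to 3 with 1 array left out. The count between TRAP and total RNA was 0 with no filter (2741 at an unadjusted p under 0.05), 2 with median centring, 1 with a replicate block of TRAP and total RNA of 1 mouse, and from 0 to 2 with 1 array left out. With the list taken from Slc6a2 TRAP alone, 5 probes had a median of 1.50, against 0.82. Leaving out 1 array of Slc6a4 TRAP gave 0.72 to 1.13. The 4 probes of smallest p for LPS in Slc6a4 TRAP, and those named in both comparisons of responses, kept their sign wherever they were tested; the other named probes were not followed singly. Probes near background limit the sizes given, and body temperature, probe genes and marker levels were not analysed here.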
